A study of Mus musculus with 56 samples.

Results

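The genes described here are the mouse synaptotagmins, syntaxins, syntaxin-binding proteins, vesicle-associated membrane proteins, SNAP proteins and synapsins, most of which serve the fusion of vesicles with membranes. They were taken by name: a gene belonged if its symbol on the array's annotation was Syt, Stx, Stxbp, Vamp, Snap or Syn followed directly by a digit, and each gene was read from its brightest probe set among those annotated to 1 symbol. This gave 51 genes with 124 probe sets, out of 18182 genes with such a probe set. A gene was tested if its probe set exceeded log2 5 on 13 or more of the 54 arrays of strains with both regions. Of the 51 genes, 38 passed this filter, 31 of them with values above log2 5 on all 54 arrays. The name rule also takes in 8 syntaxins of the Golgi, endosome and autophagosome and the clathrin adaptor Snap91, so not every member acts at the synapse.

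Messenger RNA was measured on 1-colour oligonucleotide arrays in 2 brain regions of untreated inbred mice, the nucleus accumbens (27 arrays, 27 strains) and the prefrontal cortex (29 arrays, 29 strains). An array carried the RNA of 3 males of its strain, aged 8 to 10 weeks and pooled, so a strain has 1 array per region and no replicate within it. Both regions were profiled in WSB/EiJ, C57BL/6J, SWR/J, A/J, SM/J, AKR/J, PL/J, BALB/cByJ, RIIIS/J, C3H/HeJ, SJL/J, CBA/J, P/J, BTBR T+ tf/J, NZW/LacJ, BUB/BnJ, NON/LtJ, C58/J, NOD/LtJ, CE/J, MA/MyJ, DBA/2J, KK/HlJ, FVB/NJ, I/LnJ, C57BR/cdJ and 129S1/SvImJ. MRL/MpJ and NZO/HILtJ had a cortex array only and entered no comparison. The accumbens was punched beside the anterior commissure and the cortex cut as a wedge from the slice in front of it, from the same brains.

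Transmitter release runs on a small set of proteins. Vesicle SNAREs (the Vamp proteins) zip together with syntaxin and SNAP-25 of the plasma membrane and pull the membranes into contact, Sec1/Munc18-type syntaxin-binding proteins guide the assembly, synaptotagmins couple it to calcium, and synapsins tether the reserve of vesicles. The families are large, and their members divide the work among synapse types, dendritic and dense-core vesicle release, and traffic between the Golgi, endosomes and lysosomes. The principal neurons differ between the regions: in the accumbens they are GABAergic spiny projection neurons, and in the cortex glutamatergic pyramidal cells, whose distant axon terminals draw on mRNA made in the cell body.

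Accumbens arrays had median intensities of 9.66 to 10.1 over all probe sets, and cortex arrays 9.93 to 10.4 (linear scale). The marker lists followed the labels on most arrays. All 14 tested spiny neuron markers (such as Drd2 and Ppp1r1b) were higher in accumbens. All 10 tested cortical excitatory neuron markers (such as Slc17a7) were lower in accumbens, and all 11 tested oligodendrocyte markers higher. Markers of any list that averaged below log2 5 in 1 region only entered mainly through the other and so had to differ. Drd2 (2.96 in cortex) and Slc17a7 (3.70 in accumbens) are among them, while Ppp1r1b averaged 11.04 in accumbens and 6.30 in cortex. Of the other lists, interneuron markers were higher for 4 and lower for 4 of 8 tested. Gad1, Gad2 and Slc32a1, which are not particular to interneurons since spiny neurons are GABAergic too, were higher with Lhx6. Pvalb, Sst, Vip and Npy were lower. Astrocyte markers were higher for 3 and lower for 4 of 8, microglia markers higher for 5 and lower for 1 of 8, and endothelial and mural markers lower for 4 of 4. The accumbens arrays of BALB/cByJ, NON/LtJ, CE/J and WSB/EiJ had the 4 lowest means over the spiny neuron list, between 7.40 and 9.42 log2 units against a maximum of 10.51 over accumbens arrays. The MA/MyJ cortex array had a spiny neuron mean of 9.39, against 5.49 on the next highest cortex array of the 27. Results that rest on these arrays are given with and without them. In bulk tissue, fewer cells of a type and less RNA per cell cannot be told apart.

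Promoter stretches are shown for 4 members whose values differed between the regions, Stx1a, Syn1 and Vamp1 (lower in accumbens) and Stxbp3 (higher). Each is the 250 bases before the gene's start in RefSeq (GRCm38.p6), on the gene's own strand, of the 40 members with such a window. Capitals mark motifs searched on both strands: TGACG, the core of the cyclic AMP response element; GGGCGG, the GC box; CAGCACC, part of the RE1 element that the repressor REST binds; and CAGATG, an E-box.
Stx1a, chr5:135023232-135023481, plus strand: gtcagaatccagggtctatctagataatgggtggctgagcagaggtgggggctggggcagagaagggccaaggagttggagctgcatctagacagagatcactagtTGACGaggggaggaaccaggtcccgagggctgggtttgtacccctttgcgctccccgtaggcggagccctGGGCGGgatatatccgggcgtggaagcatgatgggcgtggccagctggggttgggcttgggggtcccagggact
Syn1, chrX:20920919-20921168, minus strand: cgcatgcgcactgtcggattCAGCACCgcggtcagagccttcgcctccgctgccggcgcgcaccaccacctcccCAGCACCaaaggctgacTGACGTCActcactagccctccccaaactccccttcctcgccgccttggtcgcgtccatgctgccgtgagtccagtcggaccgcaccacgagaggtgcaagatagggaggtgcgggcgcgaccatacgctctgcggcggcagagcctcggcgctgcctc
Vamp1, chr6:125215331-125215580, plus strand: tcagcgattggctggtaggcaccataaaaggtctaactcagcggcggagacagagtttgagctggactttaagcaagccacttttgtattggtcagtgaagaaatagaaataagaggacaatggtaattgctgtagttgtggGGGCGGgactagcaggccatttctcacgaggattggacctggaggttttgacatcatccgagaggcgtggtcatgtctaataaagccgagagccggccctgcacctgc
Stxbp3, chr3:108840503-108840752, minus strand: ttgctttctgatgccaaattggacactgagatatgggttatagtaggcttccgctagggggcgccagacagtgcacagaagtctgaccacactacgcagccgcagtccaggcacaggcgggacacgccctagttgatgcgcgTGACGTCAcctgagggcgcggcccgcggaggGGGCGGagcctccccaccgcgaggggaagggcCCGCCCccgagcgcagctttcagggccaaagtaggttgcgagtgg
The Syn1 window holds 2 copies of CAGCACC and the Stxbp3 window holds none, while both carry TGACG on both strands in overlapping form (TGACGTCA). The Stx1a window holds 1 TGACG and 1 GC box, and the Vamp1 window 1 GC box. Over all 32851 windows of the same length, TGACG was present in 17.8%, GGGCGG in 32.7%, CAGCACC in 5.73% and CAGATG in 14.4%. Among the 52 windows of members the shares were 21.2%, 59.6%, 7.69% and 9.62% in the same order. These matches describe letters, not bound sites, and windows of 1 gene can overlap.

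Across the 38 tested genes, 25 were lower and 10 higher in accumbens than in cortex at an adjusted p under 0.05 (limma with strain as a block, Benjamini-Hochberg over all 10684 features). Stxbp4, Syt4 and Stx17 passed in neither direction. The background leans the other way: 32.9% of all features were called lower and 51% higher. The median difference of the tested members was -0.27 log2 units, and that of all features 0.12. When the arrays were quantile normalized again, the median of all features was 0.01, 27 members were lower and 5 higher. Higher calls were then 15.6% of the members' calls, against 28.6% in the deposited scaling. For all features the shares were 50.5% and 60.8%. With each array centred on its median, 27 members were lower and 6 higher. Stxbp4 was then called lower (-0.19 after quantile normalization, -0.15 after centring), as was Syt4 after centring (-0.14). The log2 value at percentile 99 of all probe sets lay between 11.14 and 11.28 on accumbens arrays and between 11.04 and 11.11 on cortex arrays, so the 2 sets of arrays were not on 1 common distribution. A shift common to all probe sets of a region cannot be told apart from the scaling. Most differences were small: 22 of the 38 were under 0.5 log2 units, 11 between 0.5 and 1, and 5 above 1. All 5 above 1 were lower in accumbens (Syt17, Stx1a, Syt13, Syn1 and Vamp1). Syt17 passed the filter only through cortex and so had to differ. The other 4 stand beside 7.09% of all features called and at least 2-fold lower. That share still includes features that entered through 1 region only, so the comparison is not like for like. None of the tested members was 2-fold higher, against 8.29% of all features. Stxbp2, which failed the filter and was not tested, was higher by 1.62 log2 units with both means below log2 5.

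**Figure D1:**
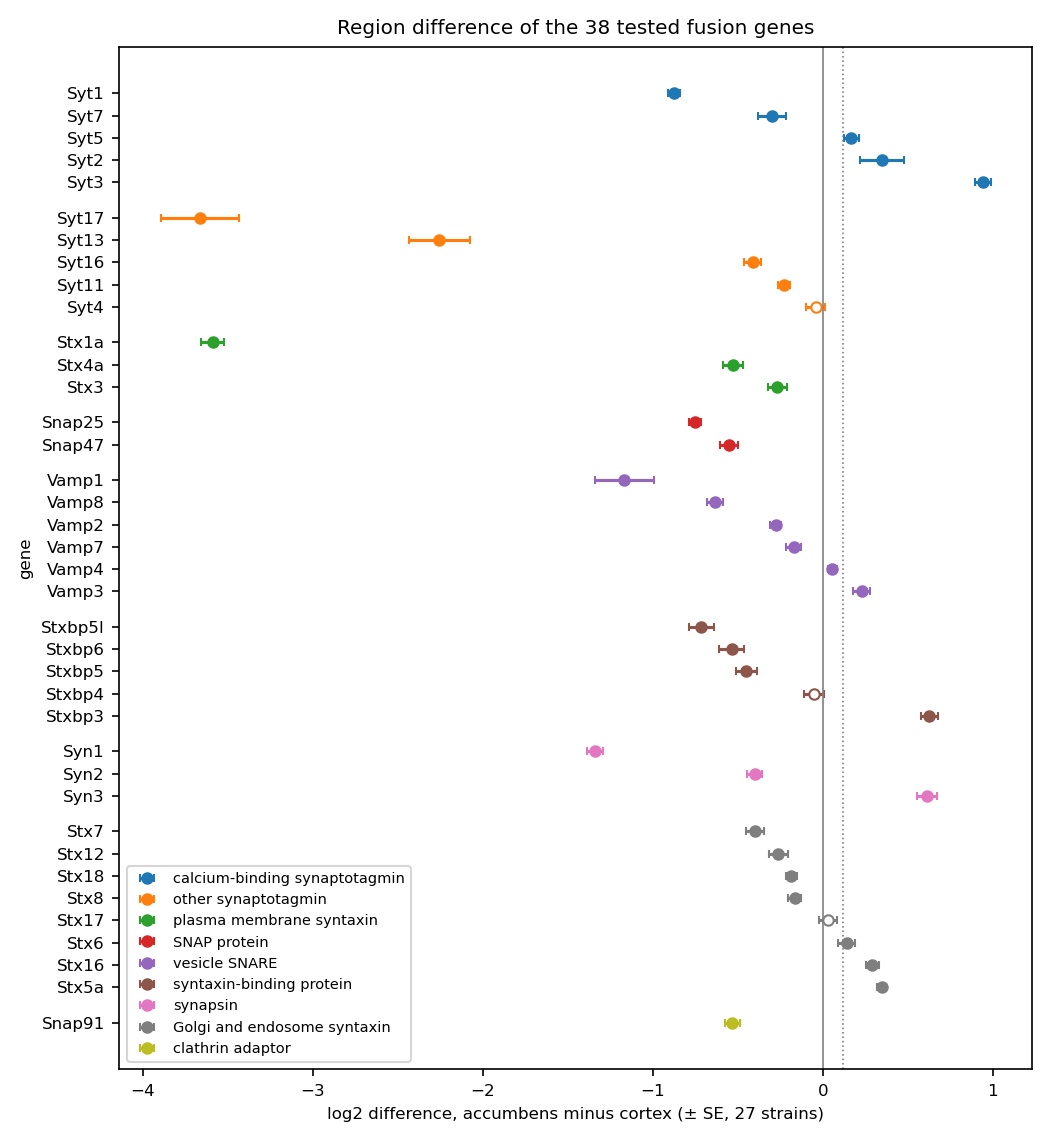
Region difference of each tested gene on the log2 scale (x axis, accumbens minus cortex, with the standard error from limma over 27 strains), with genes on the y axis grouped and coloured by role. Open points did not pass the test, and the dotted line marks the median of all 10684 features, 0.12. Syt17, Stx1a and Syt13 stand farthest to the left, and Syt3 (0.94) farthest to the right.

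Stx1a, the plasma membrane syntaxin of synapses, separated the regions without overlap. Its log2 intensity ran from 4.98 over a median of 5.49 to 6.54 on accumbens arrays, against 8.43, 9.12 and 9.29 on cortex arrays. No accumbens array reached the lowest cortex array, and the accumbens values lay close to the detection filter. The mean was 5.51 ± 0.29 in accumbens and 9.10 ± 0.17 in cortex (SD, n = 27 each), a log2 difference of -3.59 ± 0.07 (SE) or 12.0-fold lower in accumbens, with an adjusted p of 3.7e-28. The cortex arrays of MRL/MpJ and NZO/HILtJ, which were outside the comparison, read 9.10 and 9.18. The lowest cortex value, 8.43, was that of MA/MyJ, and the highest accumbens value, 6.54, that of SJL/J.

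The brightest probe sets of the other measured plasma membrane syntaxins were also lower in accumbens, with smaller differences. Stx4a, a syntaxin of dendritic exocytosis, averaged 6.33 ± 0.31 in accumbens and 6.86 ± 0.24 in cortex, a difference of -0.53 ± 0.06. Stx3, the syntaxin of retinal ribbon synapses and also found in dendrites, differed by -0.27 ± 0.05. The second Stx3 probe set averaged 3.93 ± 1.08 in accumbens and 5.69 ± 1.20 in cortex, a difference of -1.75 ± 0.08 with a dim accumbens mean. Stx2, Stx11 and Stx19 did not pass the filter.

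SNAP-25, the plasma membrane SNARE that pairs with syntaxins, had the same order of regions. Snap25 ran from 12.68 over 12.95 to 13.30 in accumbens, against 13.48, 13.72 and 13.86 in cortex. The groups did not overlap, and it was 1.68-fold lower in accumbens (-0.75 ± 0.03, adjusted p = 2e-18). The 4 members Stx1a, Snap25, Stxbp5l and Syn1 had every accumbens array below every cortex array, as did 5.25% of all features. Syt3 had every accumbens array above, as did 6.12%. Snap47, a SNAP-25 relative without its membrane-anchoring cysteines, was lower in 26 of 27 strains (-0.55 ± 0.05). Snap23 and Snap29, the broadly expressed relatives, did not pass the filter.

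Among the vesicle SNAREs, Vamp1 (synaptobrevin 1, known for motor and brainstem synapses) differed most and varied most. It ran from 5.98 over 6.98 to 9.82 in accumbens, against 7.65, 8.48 and 8.95 in cortex. Accumbens arrays spread over a far wider range than cortex arrays, and the highest of them exceeded every cortex array. The means were 7.27 ± 0.98 in accumbens and 8.44 ± 0.29 in cortex (SD, n = 27 each). Vamp1 was 2.25-fold lower in accumbens (-1.17 ± 0.17, adjusted p = 3.5e-07) and lower in 23 of 27 strains. The difference was -1.52 without the 5 strains that hold the arrays standing apart (BALB/cByJ, NON/LtJ, CE/J, WSB/EiJ and MA/MyJ).

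Vamp2, the main synaptobrevin of forebrain synapses, differed by only -0.28 ± 0.03, with means of 10.74 ± 0.15 in accumbens and 11.02 ± 0.11 in cortex, and was lower in 26 of 27 strains. Vamp8, a SNARE of late endosomes and secretory granules, was lower in all 27 strains, but its accumbens mean of 4.80 lay below log2 5, so the fold is a bound of at least 1.36. Vamp7, the tetanus-insensitive SNARE of late endosomes and growing neurites, differed by -0.17. Vamp3 (cellubrevin, recycling endosomes) was higher by 0.23 and Vamp4 (trans-Golgi network) by 0.05 (adjusted p = 0.048). Vamp3 was not called after quantile normalization (0.092). Vamp4 turned to -0.016 after quantile normalization and -0.045 after centring, where it was not called. A dimmer Vamp4 probe set (1434796_at) gave 0.52 and passed, and the dimmest (1422896_at) gave -0.04 and was not called. Vamp5 did not pass the filter. Over the 6 tested vesicle SNAREs, 4 were lower and 2 higher, while 32.9% of all features were lower and 51% higher. The 4 include Vamp8, which entered mainly through cortex and so had to differ.

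**Figure D2:**
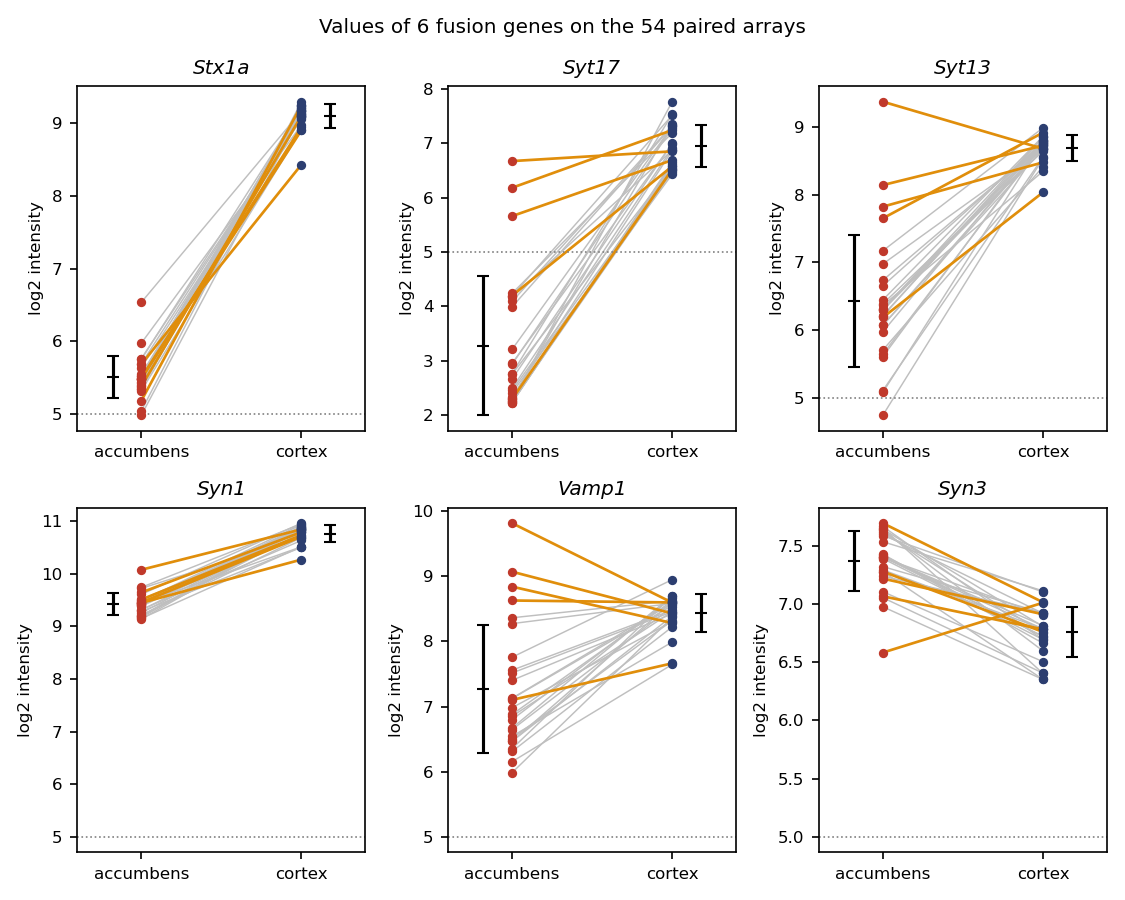
Log2 intensity (y axis) of Stx1a, Syt17, Syt13, Syn1, Vamp1 and Syn3 on the 27 accumbens arrays (left) and 27 cortex arrays (right), with a line joining both arrays of a strain and mean ± SD beside the points. Orange lines are BALB/cByJ, NON/LtJ, CE/J, WSB/EiJ and MA/MyJ, and the dotted line is log2 5. Stx1a and Syn1 do not overlap between regions, while orange lines carry the highest accumbens values of Vamp1 and Syt13.

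The calcium-binding synaptotagmins moved in opposite directions. Syt1, the fast calcium sensor of most forebrain synapses, ran from 10.42 over 11.00 to 11.19 in accumbens, against 11.09, 11.91 and 12.01 in cortex. It was lower in accumbens in all 27 strains (-0.88 ± 0.04, 1.84-fold, adjusted p = 5.2e-20), and the ranges overlapped only through C3H/HeJ, the lowest strain in both regions (10.42 in accumbens and 11.09 in cortex). Syt2, the fast sensor of brainstem and some inhibitory synapses, averaged 5.41 ± 0.67 in accumbens and 5.06 ± 0.35 in cortex. Its difference of 0.35 ± 0.13 passed the test (adjusted p = 0.015), yet 10 of 27 strains went the other way. The call was lost without the 5 strains (0.24), after quantile normalization (0.20) and after centring (0.25).

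Syt3, a high-affinity synaptotagmin linked to retrieval of glutamate receptors, was higher in accumbens in all 27 strains. It averaged 5.26 ± 0.26 in accumbens and 4.32 ± 0.19 in cortex, a difference of 0.94 ± 0.05. Its highest cortex array, 4.68, was below its lowest accumbens array, 4.76. Since the cortex mean is below log2 5, the fold is given as at least 1.20. Syt5, a close relative of Syt1, was higher by 0.17 ± 0.05 and lost the call after quantile normalization (0.095) and centring (0.068). Syt7, the slow calcium sensor of asynchronous release and facilitation, differed by -0.30 ± 0.08. The 3 genes Syt17, Vamp8 and Syt3 exceeded log2 5 on most arrays of 1 region only. They entered through that region and so had to differ. Without them, 23 of the 35 other tested members were lower and 9 higher. The shares of all features with the same removal are not given, so these counts have no like background beside them.

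Of the synaptotagmins that lack the usual calcium-binding residues or are not known as calcium sensors, 4 of 5 tested were lower in accumbens and none higher. Of all features, 32.9% were lower and 51% higher. The 4 include Syt17, which entered through cortex and so had to differ. Syt17 (the B/K protein) ran from 2.23 over 2.75 to 6.67 in accumbens, against 6.43, 6.87 and 7.76 in cortex. Most accumbens arrays were dim, and BALB/cByJ (6.67) was the only one inside the cortex range. The measured means were 3.28 ± 1.28 in accumbens and 6.94 ± 0.39 in cortex, a fitted difference of -3.67 ± 0.23, and the fold against the filter level is at least 3.84. As the gene entered through cortex alone, this is a description with no test.

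Syt13, an atypical synaptotagmin with no calcium binding, ran from 4.75 over 6.30 to 9.37 in accumbens, against 8.03, 8.73 and 8.98 in cortex. BALB/cByJ was the only strain with a higher accumbens value, and NON/LtJ the next highest accumbens array at 8.14. The means were 6.43 ± 0.98 in accumbens and 8.69 ± 0.20 in cortex, 4.77-fold lower in accumbens (-2.26 ± 0.18, adjusted p = 6.5e-13). Without the 5 strains the difference was -2.60 for Syt13 and -4.10 for Syt17. Syt16 was lower in all 27 strains (-0.41) and Syt11, an inhibitor of endocytosis, in 25 (-0.23). Syt4, a synaptotagmin of dense-core vesicles, averaged 9.84 ± 0.45 in accumbens and 9.88 ± 0.52 in cortex and did not pass the region test (-0.04 ± 0.05). Its spread lay between strains and is described with the strain test.

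The 3 synapsins each took another course. Syn1 ran from 9.14 over 9.43 to 10.08 in accumbens, against 10.27, 10.83 and 10.96 in cortex. The regions did not overlap, the lowest cortex array being that of MA/MyJ and the highest accumbens array that of BALB/cByJ. Syn1 was 2.54-fold lower in accumbens (-1.34 ± 0.05, adjusted p = 1.6e-21) in all 27 strains. Syn2 averaged 9.88 ± 0.16 in accumbens and 10.28 ± 0.16 in cortex, 1.32-fold lower in accumbens (-0.40 ± 0.04) and lower in 26 of 27 strains. Syn3, the synapsin of young neurons and of adult sites of neurogenesis, was higher in accumbens by 1.53-fold (0.61 ± 0.06, adjusted p = 6.1e-11). It ran from 6.58 over 7.40 to 7.69 in accumbens, against 6.35, 6.78 and 7.11 in cortex. Its lowest accumbens array was BALB/cByJ, the only strain in which Syn3 was lower in accumbens.

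Among the syntaxin-binding proteins, Stxbp3 (Munc18c, the partner of syntaxin 4) was higher in 26 of 27 strains, averaging 6.41 ± 0.24 in accumbens and 5.78 ± 0.17 in cortex (0.63 ± 0.05, adjusted p = 1e-12). Its partner Stx4a was lower, as given above. The inhibitors of SNARE assembly were lower, with log2 differences of -0.45 for Stxbp5 (tomosyn), -0.72 for Stxbp5l (a tomosyn relative) and -0.54 for Stxbp6 (amisyn). Stxbp5l ran from 7.37 over 8.13 to 8.38 in accumbens, against 8.40, 8.73 and 9.31 in cortex, with no overlap. Stxbp4 (synip) did not differ past the test (-0.05 ± 0.06). Stxbp2 (Munc18b) failed the filter with 8 accumbens arrays and 0 cortex arrays above log2 5. It averaged 4.98 in accumbens and 3.36 in cortex and was not tested.

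By their brightest probe sets, the members of Golgi and endosome traffic differed by at most 0.40 log2 units. The trans-Golgi syntaxins Stx16 (0.29) and Stx6 (0.14) and the Golgi syntaxin Stx5a (0.35, higher in all 27 strains) were higher, Stx6 losing its call after quantile normalization (0.054) and centring (0.040). A second Stx5a probe set (1448267_at) gave 0.99 with a cortex mean below log2 5, and the 4 Stx6 probe sets gave 0.14, 0.01, 0.20 and 0.58. The endosomal Stx7 (-0.40), Stx12 (-0.26) and Stx8 (-0.17) and the endoplasmic reticulum syntaxin Stx18 (-0.19) were lower. Stx17, of autophagosomes, did not pass (0.03 ± 0.05). Over these 8 genes the median difference was -0.07. Snap91, which encodes the clathrin adaptor AP180 and no SNAP-25 relative, was lower in all 27 strains (-0.53 ± 0.04).

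The arrays that stood apart in the marker lists also stood apart in some members, and in others not. The 4 accumbens arrays with the lowest spiny neuron means held the 4 highest Vamp1 values (8.63 to 9.82 there, against 5.98 to 8.36 on the other 23) and the 4 highest Syt13 values (7.65 to 9.37, against 4.75 to 7.17). They held 3 of the 4 highest Syt17 values. Other lists moved on the same arrays: they held the 4 highest endocytosis means (9.22 to 9.59, against 8.79 to 9.14 on the other 23). Of the 4 highest means over the interneuron list, Gad1, Gad2 and Slc32a1 included, they held 3 (8.48 to 8.78, against 7.66 to 8.67). They also held 3 of the 4 highest astrocyte means (8.76 to 9.40, against 8.14 to 8.82) and 1 of the 4 highest oligodendrocyte means. Of the 4 highest active zone and priming means they held 3 (7.29 to 7.67, against 7.07 to 7.55). For the complexin list and for the vesicle membrane list they held 2 of the 4 highest. For the microglia, endothelial and mural, and cortical excitatory lists they held none. For Stx1a they held none of the 4 highest, with 5.18 to 5.50 there against 4.98 to 6.54 on the other 23. The 4 accumbens arrays with the highest means over the cortical excitatory list (NOD/LtJ, BUB/BnJ, SJL/J and P/J) held 3 of the 4 highest Stx1a values and none of the 4 highest Vamp1 or Syt13 values. BALB/cByJ had a cortical list mean of 4.25, within the accumbens range of 3.71 to 5.57. On the MA/MyJ cortex array, Stx1a (8.43), Syt13 (8.03) and Syn1 (10.27) were at their lowest for cortex, and its cortical list mean of 8.37 was the lowest of the cortex arrays. Without the 9 strains that hold any of these arrays, the differences were -3.72 for Stx1a, -2.71 for Syt13, -1.46 for Syn1 and -1.52 for Vamp1, all larger in size than with them. With the oligodendrocyte list mean as a covariate, Stx3, Stx6, Stx8, Stx12, Stx18, Syn2, Syt2, Syt7, Vamp4 and Vamp7 lost their calls and Vamp3 changed sign (-0.048). The part of the other list means in the results was not tested beyond that.

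**Figure D3:**
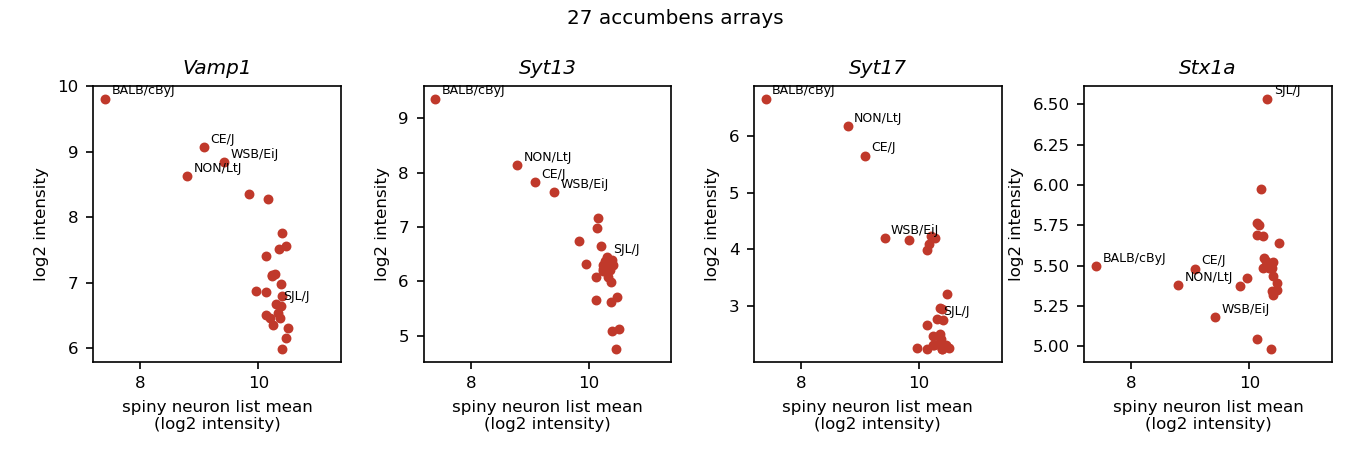
Log2 intensity (y axis) of Vamp1, Syt13, Syt17 and Stx1a on each of the 27 accumbens arrays against the mean log2 intensity over the spiny neuron list on the same array (x axis). The 4 named arrays at the left have the highest Vamp1 (8.63 to 9.82) and Syt13 values, while their Stx1a values (5.18 to 5.50) lie among those of the other arrays.

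Relatives within a family can be set against each other inside an array, by the difference of their log2 differences. A shift common to all probe sets of the array drops out of it. Scaling that depends on intensity does not drop out, and Syt1 and Syt2 lie far apart (means of 10.97 and 5.41 in accumbens). The pairs with both genes tested were 3, and each was compared with a two-sided sign-flip permutation over strains, adjusted over the 3 pairs. Syn1 fell relative to Syn2 by 0.94 log2 units in accumbens against cortex (SD 0.24 over strains), in 27 of 27 strains (adjusted p = 1.5e-05). Syt1 fell relative to Syt2 by 1.23 (SD 0.69), also in 27 of 27 strains (adjusted p = 1.5e-05). The unadjusted p of both, 1e-05, is the smallest the draws can give. Vamp1 fell relative to Vamp2 by 0.89 (SD 0.91) in 21 of 27 strains (adjusted p = 0.00011), with values between -2.18 in C58/J and 1.04 in BALB/cByJ. Without the 5 strains the values were -1.15 for Syt1 and Syt2 and -1.22 for Vamp1 and Vamp2. These are unequal changes within arrays and do not say which gene of a pair changed.

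Several genes are read by more than 1 probe set, and their probe sets did not always give the same answer. Of 23 genes with more than 1 probe set past the filter, 11 had all probe sets called in the same direction and 8 had 1 direction with some not called. Snap25, Stx18, Stxbp5l and Syn2 had called probe sets in both directions. For Snap25 the brighter probe set 1416828_at gave -0.75 and the dimmer 1447763_at gave 0.24. For Syt7 the 3 probe sets gave -0.30, -0.88 and -1.26, and for Syt1 the 4 gave -0.88, -0.40, -0.22 and 0.09, the last 2 not called. Syt17 (-2.49 at the second) and Syt13 (-3.43 at the second) were lower on both of theirs. With every probe set as a feature of its own, 42 of 76 member probe sets were lower and 24 higher, while 31.5% of all probe sets were lower and 51.8% higher. Which transcripts each probe set reads was not examined.

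**Figure D4:**
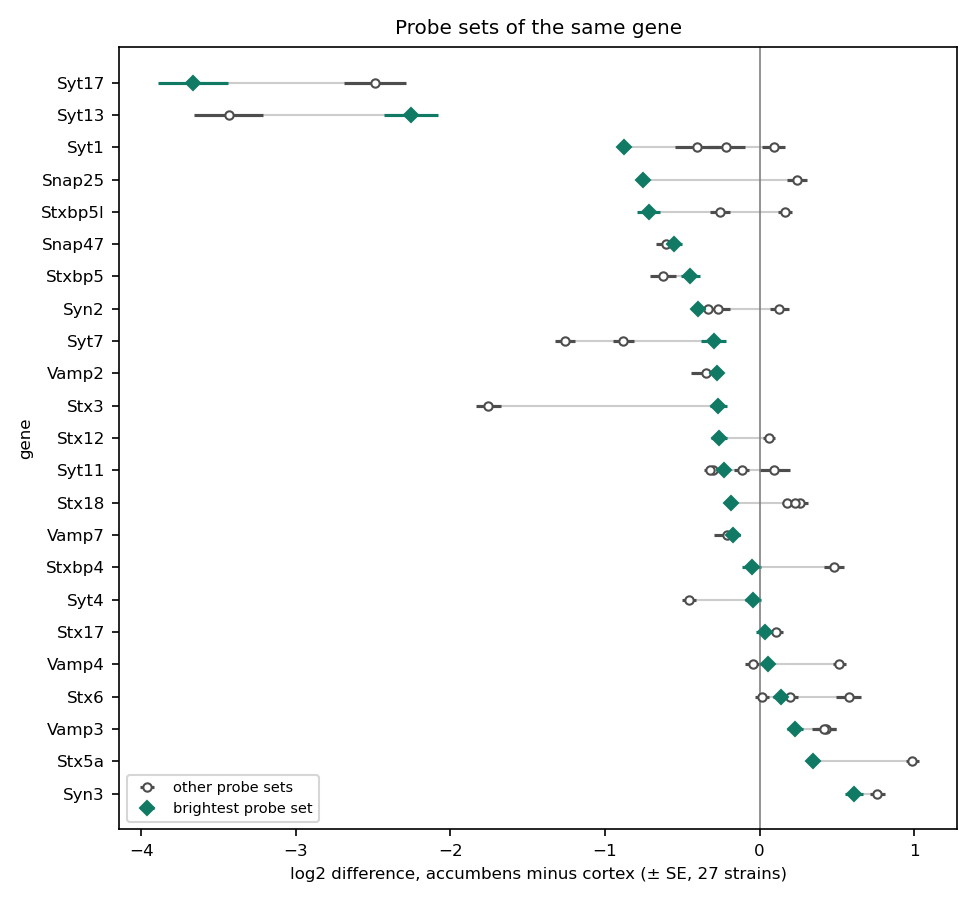
Region difference on the log2 scale (x axis, accumbens minus cortex, with standard error over 27 strains) of every probe set past the filter for the 23 genes with more than 1 (y axis). Filled diamonds are the brightest probe set of a gene and open circles the others. Syt17, Syt13 and Syt7 lie left of 0 throughout, while Snap25 has a probe set on each side (-0.75 and 0.24).

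Differences between strains were tested in the same model, as strain effects shared by both regions. Of the 38 tested genes, 5 passed (Syt4, Stxbp4, Vamp4, Syt1 and Syt3), against 20.4% of all features. A strain effect in 1 region alone could not be tested with 1 array per strain and region. The median SD of strain means was 0.16 for the members and 0.18 for all features. The 5 members with the largest SD were Syt17, Vamp1, Syt13, Syt4 and Syt2, of which only Syt4 passed the strain test.

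Syt4 (probe set 1415844_at) had the smallest strain p of the members (adjusted p = 1.7e-07). In BUB/BnJ, 129S1/SvImJ, MA/MyJ, AKR/J, NON/LtJ, FVB/NJ and SJL/J its accumbens values lay between 8.76 and 9.50, against 9.95 to 10.43 in the other 20 strains. In cortex the same 7 strains lay between 8.75 and 9.35, against 9.40 to 10.41 in the others, with SWR/J at the low end. Strain means ran from 8.92 in AKR/J to 10.26 in KK/HlJ. The second Syt4 probe set, 1415845_at, did not show this grouping (adjusted p = 0.17). Its SDs were 0.19 in accumbens and 0.19 in cortex, and it was lower in accumbens by 0.46 log2 units.

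Stxbp4 (probe set 1451063_at) was set apart by 1 strain. CE/J read 5.13 in accumbens and 4.68 in cortex, against a strain median of 6.53 and a next lowest strain mean of 6.27 (adjusted p = 0.00016). The second probe set did not pass (adjusted p = 0.16). Syt1 was lowest in C3H/HeJ, with a strain mean of 10.76 against 11.26 in the next strain (adjusted p = 0.023). The other 3 Syt1 probe sets did not pass (adjusted p between 0.10 and 0.80), and on 1431191_a_at C3H/HeJ was the highest strain (8.90). Vamp4 was lowest in A/J, 8.69 against a median of 9.03 (adjusted p = 0.0051), and neither other Vamp4 probe set passed (adjusted p = 0.27 and 0.75). Syt3, dim in cortex, ran from 4.31 in RIIIS/J to 5.15 in BTBR T+ tf/J (adjusted p = 0.034). Without the 9 strains, Syt1 and Syt4 were the only members called. CE/J, the strain that set Stxbp4 apart, is among the 9, so that fit could not check the Stxbp4 call.

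Probe sets of the same gene often gave different answers in the strain test. With every probe set tested, 15 of the members' 76 passed, belonging to 14 genes, and 20.1% of all probe sets did. Among genes with more than 1 probe set, 13 had some but not all past the strain test and 0 had all. At Stx3, probe set 1425530_a_at split the strains (adjusted p = 3.5e-12): strain means ran from 3.37 in FVB/NJ to 6.29 in DBA/2J, and cortex values were 4.34 in FVB/NJ and 7.18 in DBA/2J. The brighter Stx3 probe set did not pass. At Syt11, probe set 1456464_x_at was 7.51 in accumbens and 7.95 in cortex of KK/HlJ, against a next lowest strain mean of 10.02 (adjusted p = 6.3e-11), while the other 4 Syt11 probe sets did not pass. At Syn2, 1460230_at ran from 8.48 in PL/J to 10.54 in SWR/J (adjusted p = 4.5e-07), and 1449030_at, also lowest in PL/J (7.92), passed too (adjusted p = 0.024). The brightest and the dimmest of the 4 Syn2 probe sets did not pass. Sequence differences between strains at the probes were not examined.

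**Figure D5:**
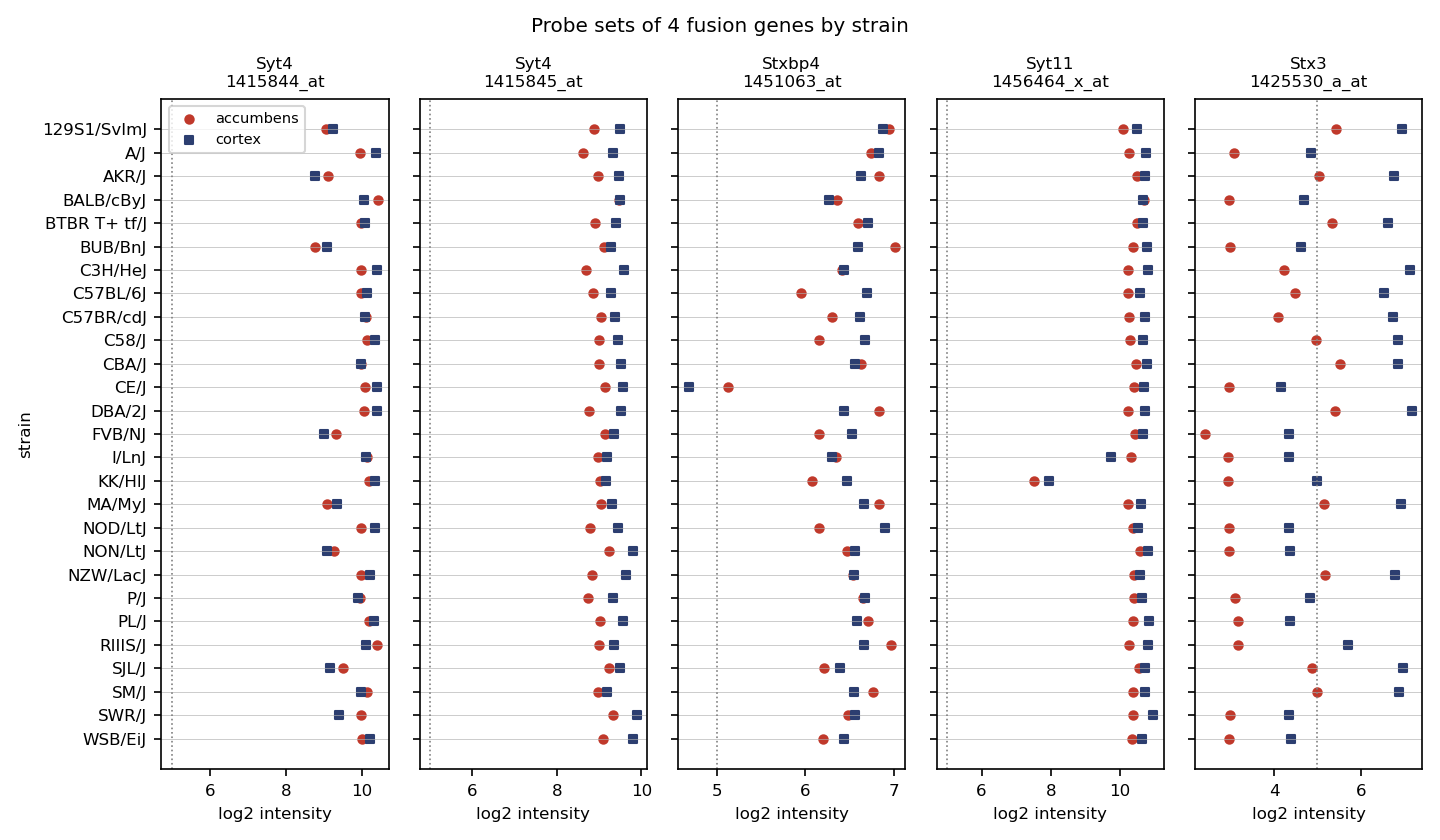
Log2 intensity (x axis) of 5 probe sets of Syt4, Stxbp4, Syt11 and Stx3 in 27 strains (y axis), with circles for accumbens, squares for cortex and a dotted line at log2 5. The first Syt4 probe set has 7 strains at the left in both regions and the second does not. Stxbp4 has CE/J apart (5.13 and 4.68), Syt11 has KK/HlJ apart (7.51 and 7.95), and the Stx3 probe set splits the strains.

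Genes that work beside the SNAREs were read from 4 lists of 61 genes, of which 54 were tested, 38 lower and 13 higher in accumbens. Of all features, 32.9% were lower and 51% higher. In the active zone and priming list, 15 of 19 were lower and 3 higher. The lower count includes Rims4, which averaged 4.30 in accumbens and 5.59 in cortex. It entered mainly through cortex and so had to differ. Cadps2, a priming factor of dense-core vesicles, differed by -3.19 ± 0.24, Unc13b (Munc13-2) by -2.13 ± 0.06 and the scaffold Bsn (bassoon) by -1.46 ± 0.08. Unc13c (Munc13-3), best known from cerebellum, was higher by 2.82 ± 0.11, averaging 9.32 ± 0.34 in accumbens and 6.51 ± 0.50 in cortex. Erc2 (0.40) and Rims2 (0.34), active zone scaffolds, were the other 2 higher. Munc13 relatives thus lay on both sides.

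Of 10 tested complexins and SNARE-cycle genes, 7 were lower and 3 higher. The calcium-binding Doc2 relatives had opposite signs. Doc2a averaged 5.02 ± 0.45 in accumbens and 8.37 ± 0.16 in cortex (-3.35 ± 0.08). Its accumbens values lay around the filter level, down to 4.22. Doc2b averaged 8.42 ± 0.49 in accumbens and 3.84 ± 0.74 in cortex, at least 10.7-fold higher. Doc2b, counted among the 3 higher, entered mainly through accumbens and so had to differ. Its sign is a description with no test. Napb (beta-SNAP, -0.89) and Nsf (the ATPase that takes SNARE complexes apart, -0.50) were lower, and Cplx2 (complexin 2, 0.33) and Snapin (0.19) higher. Among 15 tested genes of the vesicle membrane and rab3, 8 were lower and 5 higher. Sytl2 (-2.69), the vesicle glycoprotein Sv2b (-2.20) and the Rab3 effector Rph3a (rabphilin, -2.10) had the lowest differences, and Synpr (synaptoporin, 1.79), Rab27b (0.67) and Sypl (0.53) the highest. In the endocytosis list 8 of 10 were lower, led by Dnm1 (dynamin 1, -1.26), Sh3gl2 (endophilin A1, -1.19) and Amph (amphiphysin, -0.96), and Dnm3 (0.46) and Clta (0.11) were higher. Of the 54, 6 passed the strain test, against 20.4% of all features.

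The 13 members below the filter were Snap23, Snap29, Stx2, Stx11, Stx19, Stxbp2, Syt6, Syt8, Syt9, Syt10, Syt12, Syt14 and Vamp5. Syt14 exceeded log2 5 on 4 accumbens arrays and Syt9 on 3, up to 6.66, and neither on any cortex array. With Stxbp2 these are the members that crossed the level on some array, all in accumbens. Stxbp2 (4.41 to 5.29 in accumbens, against 2.72 to 3.74 in cortex) was higher in accumbens in all 27 strains with no overlap. Both of its means lay below log2 5, so no fold is given. Stx2 (4.45 to 4.96 in accumbens, against 3.66 to 4.10 in cortex) and Syt10 (2.57 to 3.58 in accumbens, against 2.18 to 2.24 in cortex) were higher in accumbens in all 27 strains with no overlap, but below the filter level on every array, so no fold is given. Without the filter, 15 of the 51 members were called higher and 29 lower, counts that include members below log2 5 on every array. The share of all features in that fit is not given, so these counts are not read as a result.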

How the data were processed

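Probe set intensities as the authors deposited them, on a linear scale, were used. Per the submitters' processing notes they come from GCRMA, a method of background correction, quantile normalization and probe summary, for which no version is stated in the labels. The table held 45015 probe sets, and 64 controls were left out. The platform's gene table gave 34880 probe sets 1 symbol, 923 several and 9148 none. All 51 members matched a RefSeq record by gene identifier, with 0 symbols changed.

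The log2 of each intensity was taken without adding a pseudocount. Probe sets above log2 5 on at least 13 of 54 paired arrays were kept, 1 per gene (the brightest), leaving 10684 features. limma 3.58.1 in R 4.3.3 (lmFit, eBayes) fitted strain as a block and region, on 54 arrays. The block rests on the design text, which takes both regions from the same brains. The region coefficient had a moderated t statistic and the strain coefficients a moderated F statistic, adjusted by Benjamini-Hochberg at a threshold of 0.05. Differences are accumbens minus cortex. Where a region averaged below log2 5, that level took its place in the fold, which is then a lower bound. Paralog ratios used 100000 sign-flip draws. Nothing says that the pools were repeated, so p-values rest on the spread over strains, and precision is limited by how many arrays there are. Python 3.11.15 (matplotlib 3.10.9, numpy 2.4.6, pandas 2.3.3) served for tables and figures.

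Named genes were the members with a difference of at least 1 log2 unit, the neuronal release genes, members past the strain test, the 5 whose strain means had the largest SD, and up to 3 per direction in each pathway list. The remaining members were named as part of their role group, and probe sets beyond the brightest after their values were seen. Rims4 was named for its dim accumbens values. The members and lists were chosen with earlier results of these data known. The region and strain tests were tested on simulated data with the real spread. Alternatives were other filters, quantile normalization or centring, the next brightest probe set, trend and robust variance, the oligodendrocyte list mean in the model, a fit with no replicate block, strains left out and a threshold of 0.01. The use of every probe set and the omission of 9 strains were chosen after seeing the data.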

Additional observations from a re-analysis of the deposited data

How the results depend on the processing

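Against 10 members higher, 25 lower and 5 past the strain test, the number higher was 6 with a filter at log2 7 (28 members tested), 5 after quantile normalization, 6 after centring and 6 with the oligodendrocyte list as a covariate, where 18 were lower. With every probe set, 24 were higher, 42 lower and 15 past the strain test, of 76. The strain test called 3 at the log2 7 filter, 3 at a threshold of 0.01 and 2 without 9 strains, CE/J among those left out. Without the replicate block that pairs the regions of a strain, 9 were higher and 25 lower, the call lost being Vamp4. The next brightest probe set, the robust fit, no filter and leaving out 2 or 5 strains kept the 3 counts within 1.5 times. Over single genes, 401 comparisons with an alternative kept direction and call, 27 lost the call, 5 gained it and 13 changed sign. Stx17 was -0.11 after quantile normalization, -0.068 centred, -0.021 without 5 strains and -0.044 without 9. Vamp4 was -0.016 and -0.045 under the first 2 of these. On the next probe set Snap25 was 0.24, Stx12 0.059, Stx18 0.18, Stxbp4 0.48 and Syn2 0.13. With the covariate Stxbp4 was 0.11 and Vamp3 -0.048, and 10 members lost their call. The cause was not tested. The paralog ratios kept sign and call, between -0.75 and -1.47. Dim probe sets (Syt17, Syt3, Vamp8) have bounds only.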
